A study of Gallus gallus and Dromaius novaehollandiae with 14 samples.

Results

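The most abundant transcripts shared by emu and chicken embryonic epidermis are described here gene by gene. Members were chosen by their lowest level over all 14 libraries: the 100 genes with the highest lowest level were taken, and were numbered by that value, so that member 1 is the gene whose lowest level was the highest. The members were 100 of the 8751 genes listed, or 1.14%. Levels are in TPM, the relative abundance of a transcript, corrected for its length, so that levels of different genes can be compared. The choice used the levels of every library, so levels, ranks and shares are a description and carry no test. A gene that is chosen for a high lowest level tends to be a steady one, so the members called in a comparison are set beside the share of all tested genes called.

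The libraries were made from polyadenylated RNA of epidermis that was freed from the underlying dermis with dispase, a protease (10 mg/mL, 13 h at 4 °C). In emu, whose eggs were kept at 35.5 °C, there were 2 libraries from feather placode tracts, 2 from scutate scale, 1 from reticulate scale and 1 from claw. In chicken, whose eggs were kept at 37.8 °C, each of the 4 appendages had 2 libraries, and the design text calls the replicates biological. By Hamburger and Hamilton stage, both species were sampled at 33 to 34 (feather), 36 (claw), 37 (scutate scale) and 39 (reticulate scale), so stage cannot be told apart from appendage, nor temperature from species.

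In most animal cells a small set of genes supplies a large part of the messenger RNA. In embryonic skin such genes usually include those for ribosomal proteins and translation factors, which growing cells need in large amounts, those for actin and other parts of the cytoskeleton, and the keratins, which give epidermal cells their strength. The table lists genes by Ensembl chicken ID with no names, and 0 of the IDs matched a name in the RefSeq gene table used here. The members are therefore called by their number, a few also by ID, and no role is given to any of them. For the same reason the labelled epidermis was not checked against its marker genes here.

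The listed levels summed to 550000 TPM in each emu library. In chicken they summed to 500783 and 521547 TPM in the claw libraries and to between 537026 and 575133 TPM in the other 6. TPM keeps no read number, so the depth behind the values is unknown. A share of a fixed total also means that a gene which takes more leaves less for the others, and in whole tissue fewer cells of a type and less RNA per cell cannot be told apart.

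The 100 members, 1.14% of the genes, held between 33.19% and 41.42% of the listed total in every library. Their share was 34.27% and 35.17% in emu feather and 37.51% and 35.67% in emu scutate scale, against 34.14% in the emu reticulate library and 33.19% in the emu claw library. It was 33.89% and 34.74% in chicken feather, 36.84% and 36.67% in chicken scutate scale, 36.65% and 40.36% in chicken reticulate scale, and 41.42% and 37.74% in chicken claw. The mean was 34.99% ± 1.51 in emu (SD, n = 6) and 37.29% ± 2.56 in chicken (SD, n = 8), and the species overlapped. The feather shares of the birds overlapped, and the chicken libraries of reticulate scale and claw lay above the single emu library of the same appendage.

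**Figure D1:**
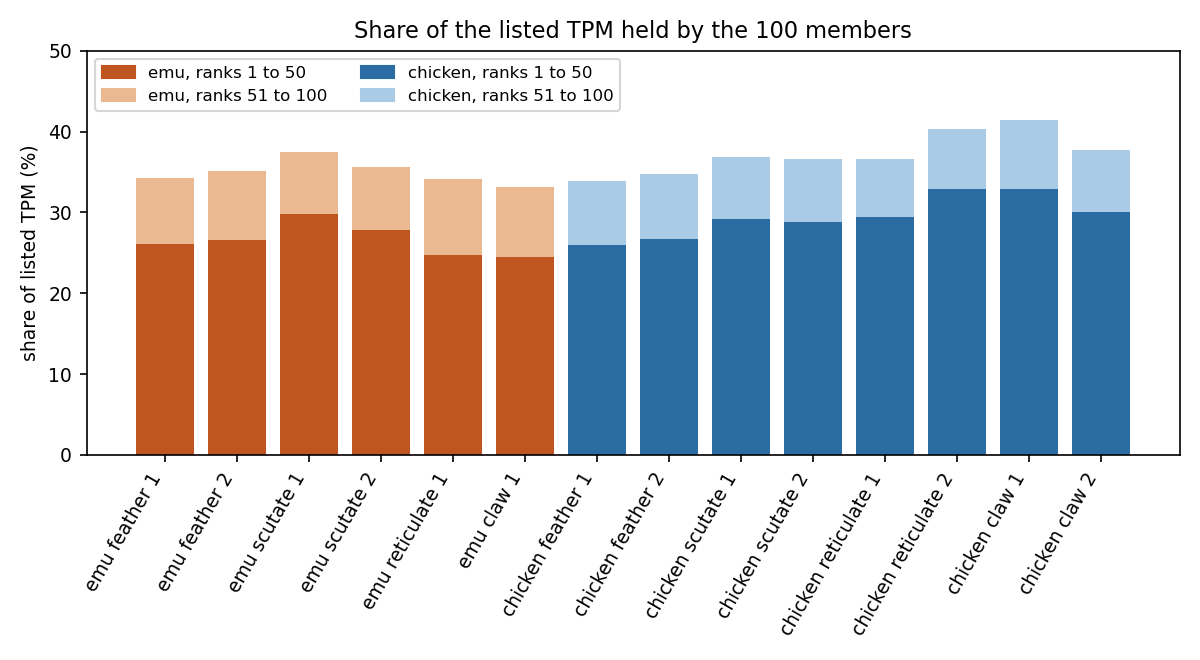
Share of the listed TPM (percent) held by the members in each library, with the members ranked 1 to 50 and those ranked 51 to 100 stacked, and the emu libraries left of the chicken libraries. The share ran from 33.19% to 37.51% in emu and from 33.89% to 41.42% in chicken, and the members ranked 1 to 50 held most of it in every library.

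Most of this share belonged to the members ranked 1 to 50, called the upper 50 from here on. They held 24.46% to 29.86% of the listed total in emu libraries and 26.03% to 32.92% in chicken libraries. The split is by lowest level, so a gene that is low in a single group is placed further down by that same value, and differences between the upper and the lower 50 are a description. The members ranked 51 to 100, the lower 50, held 7.65% to 9.45% in emu and 7.21% to 8.50% in chicken. The first member alone held between 0.66% and 0.78% in emu libraries and between 1.43% and 1.86% in chicken libraries, and these ranges did not overlap. Members and each library's own leaders were not the same set: between 75 and 80 of them were among the first 100 genes of an emu library, and between 74 and 80 among the first 100 of a chicken library. In all, 61 genes stood in the first 100 of every library, and each of these was a member. Another 84 genes reached the first 100 of some library without being members, and 12 of those had a level under 1 TPM in some other library.

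The edge of the choice was gradual. Members 96 to 100 had lowest levels of 348.8, 346.4, 344.2, 341.1 and 341.0 TPM. The 5 genes just outside had 339.1, 332.7, 328.8, 327.1 and 326.6 TPM. The lowest level of a member fell in an emu library for 55 members, 27 of them in emu reticulate scale, and in a chicken library for 45.

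The leading gene differed among the emu groups and was the same in all chicken groups. Member 1 (ENSGALG00000010077) was first in every chicken group and in 0 emu groups. It had 3930 and 3824 TPM in emu feather, 4285 and 4090 TPM in emu scutate scale, 3708 TPM in emu reticulate scale and 3642 TPM in emu claw. In chicken it had 7856 and 8236 TPM in feather, 8884 and 9268 TPM in scutate scale, 9311 and 10552 TPM in reticulate scale, and 8026 and 7879 TPM in claw. Every emu library was below every chicken library for this gene. Member 5 (ENSGALG00000004848) was first in emu feather, at 6000 and 5940 TPM, and in emu scutate scale, at 5130 and 5052 TPM. In chicken, member 5 had 5064 and 5217 TPM in feather and 4442 and 4385 TPM in scutate scale, which was below emu in both appendages.

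The 2 emu groups of 1 library were led by genes from the lower 50. In emu reticulate scale the first member was member 56 (ENSGALG00000000812), at 5694 TPM, a gene that had 1214 and 1027 TPM in chicken reticulate scale. In emu claw it was member 60 (ENSGALG00000009163), at 7010 TPM, a gene that had 2471 and 1451 TPM in chicken claw. Both levels rest on 1 library, so their spread is not known.

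Over all 8 groups, 21 members reached the first 10 places somewhere, 8 of them in all 4 chicken groups and 3 in all 4 emu groups. Member 2 (ENSGALG00000010124) was the only one in the first 10 of all 8 groups. It had 4183 and 4260 TPM in emu feather, 4755 and 4552 TPM in emu scutate scale, 3807 TPM in emu reticulate scale and 4063 TPM in emu claw. The chicken libraries had 3610 and 3924 TPM in feather, 3901 and 4209 TPM in scutate scale, 4110 and 4695 TPM in reticulate scale, and 4328 and 3978 TPM in claw. The species overlapped throughout this range, and its highest level was 1.32 times its lowest, among the smallest such ratios of any member.

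Across the 100 members, the order of levels in emu and in chicken had a Spearman correlation of 0.799 for feather, 0.861 for scutate scale, 0.816 for claw and 0.794 for reticulate scale. Within a species the appendages were closer, at 0.873 to 0.965 in emu and 0.907 to 0.985 in chicken, and replicates of a group were at 0.962 to 0.992. These values describe how alike the orders were across genes that share their libraries. They are raised by the spread between upper and lower ranks: between the species means, the correlation was 0.831 over all members, 0.596 within the upper 50 and 0.519 within the lower 50.

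The species difference was taken as the log2 level in emu minus that in chicken, averaged over the 4 appendages, and tested with limma, a linear model that shares information on spread between genes. A gene was called at a Benjamini-Hochberg adjusted p under 0.05 over the 7563 genes tested. Of the members, 77 were called, against 78.2% of all genes tested, a share near that of the members. Of these, 31 were higher in emu and 46 lower, whereas over all tested genes 44.5% were higher and 33.7% lower. The median log2 difference was -0.13 over the members and 0.13 over all tested genes. The median size of the difference regardless of sign was 0.38 over the members and 0.70 over all tested genes. Of the members, 11 differed by 2-fold or more, and the share of all tested genes that did so is not given here.

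The balance of higher and lower calls moved with the scaling of the libraries. After rescaling by median ratios 22 members were higher and 58 lower in emu, and after quantile normalization 37 were higher and 42 lower. These fits called 5958 and 5977 of the 7563 genes tested. How those genes split by direction is not given here, so whether genes at large moved likewise is not shown. On the levels without rescaling, all 6 emu libraries lay above all 8 chicken libraries for 13 members and below them for 25, and the species overlapped for 62. The groups did not overlap for 36.2% of all genes tested, with emu above chicken in 1673 genes and below it in 1062.

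**Figure D2:**
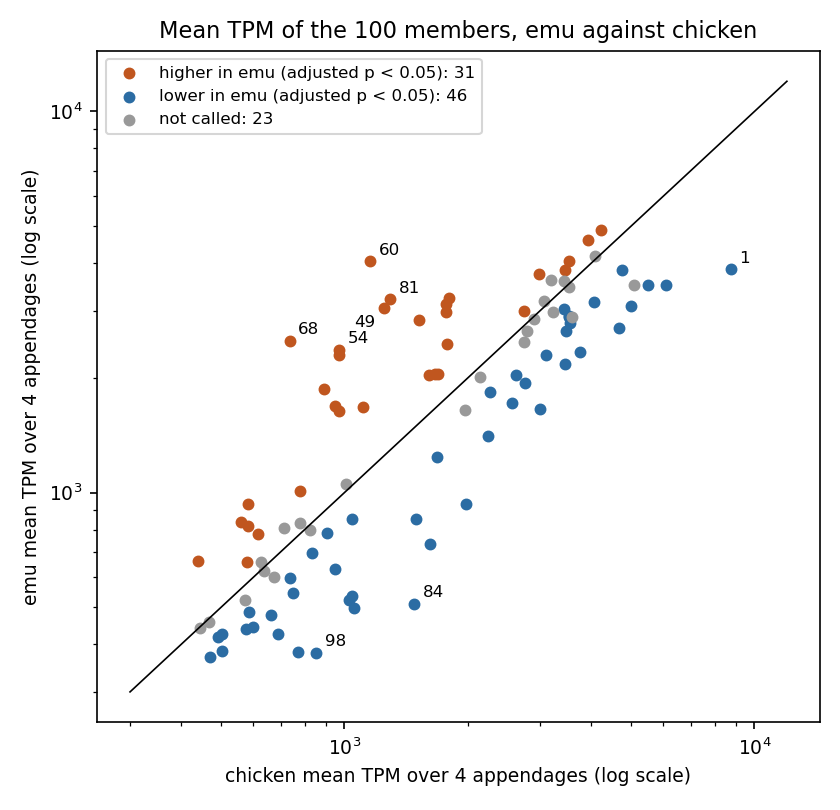
Mean TPM over appendages of each member in emu (vertical axis, log scale) and in chicken (horizontal axis, log scale), with points coloured by the limma call and the line marking equal levels. Members 60, 68, 81, 49 and 54 are numbered above the line, and members 84, 1 and 98 below it.

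The members higher in emu by the most came from the end of the upper 50 and from the lower 50. Member 60 differed by a log2 of 1.84 (SE 0.16, limma adjusted p = 3.63e-06). Its levels were 2526 and 2680 TPM in emu feather, 2847 and 2875 TPM in emu scutate scale, 3754 TPM in emu reticulate scale and 7010 TPM in emu claw. In chicken it had 647 and 673 TPM in feather, 662 and 1220 TPM in scutate scale, 1027 and 1093 TPM in reticulate scale, and 2471 and 1451 TPM in claw. Every emu library was above every chicken library, although the lowest emu value was close to the highest chicken one, and claw was the highest appendage in both birds.

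Member 68 (ENSGALG00000010250) differed by a log2 of 1.56 (SE 0.07, limma adjusted p = 5.59e-08). In emu it had 871 and 873 TPM in feather, 1346 and 1684 TPM in scutate scale, 3732 TPM in reticulate scale and 3897 TPM in claw. The chicken libraries had 564 and 544 TPM in feather, 966 and 1055 TPM in scutate scale, 746 and 916 TPM in reticulate scale, and 515 and 581 TPM in claw. Emu was higher in each appendage, most of all in reticulate scale and claw, the groups of 1 library, while emu feather lay within the chicken range. Member 81 was next, at a log2 of 1.53 (SE 0.23, limma adjusted p = 0.000173), and its replicates were 1.5-fold or more apart in 3 chicken groups. Members 49 and 54 were higher in emu in every library, by log2 differences of 1.30 (SE 0.05, limma adjusted p = 1.34e-08) and 1.29 (SE 0.06, limma adjusted p = 3.57e-08). Member 49 averaged 3056 ± 162 TPM in emu (SD, n = 6) and 1247 ± 161 TPM in chicken (SD, n = 8), so it differed between the birds and varied little among appendages.

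Of the members lower in emu, member 84 (ENSGALG00000003806) differed by the most, at a log2 of -1.54 (SE 0.05, limma adjusted p = 2.35e-09). It had 585 and 560 TPM in emu feather, 477 and 507 TPM in emu scutate scale, 403 TPM in emu reticulate scale and 578 TPM in emu claw. In chicken it had 1716 and 1736 TPM in feather, 1369 and 1534 TPM in scutate scale, 1252 and 1317 TPM in reticulate scale, and 1445 and 1462 TPM in claw. The lowest chicken value was more than 2 times the highest emu value. Member 1, the leading gene of chicken, differed by -1.18 (SE 0.05, limma adjusted p = 3.76e-08), and members 98, 61, 83 and 51 by -1.16, -1.15, -1.09 and -1.05.

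These shifts changed places in the order of members by mean level. Member 60 stood at place 4 in emu and at place 56 in chicken, member 68 at place 36 in emu and 78 in chicken, member 81 at 17 in emu and 54 in chicken, and member 49 at 22 in emu and 55 in chicken. In the other direction, member 84 stood at place 86 in emu and at place 53 in chicken. Member 83 stood at 87 in emu and 58 in chicken, and member 98 at 99 in emu and 70 in chicken. Member 28 stood at 40 in emu and 12 in chicken, and member 46 at 55 in emu and 28 in chicken. Taken as TPM, which is a relative measure, the members summed to 190622 in emu and 202787 in chicken, as means over appendages. The 61 members with less in emu differed by -39210 TPM in all, of which member 1 made up -4898 TPM, while the 39 members with more in emu added 27045 TPM, of which member 60 made up 2902 TPM.

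Levels of the members spanned a narrower range than those of genes at large, which the choice by lowest level favours. The highest library of a member was a median of 1.98 times its lowest, against 3.79 times over the 6722 tested genes that were above 0 in every library. For 13 members the ratio was under 1.5, for 52 under 2 and for 94 under 5. The ratio was a median of 1.74 in the upper 50 and 2.31 in the lower 50. Members 90, 60 and 81 had the widest range, at 12.4, 10.8 and 10.3 times.

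An F test of the 4 appendages, averaged over the species in the same limma model, called 48 members, against 60.3% of all genes tested. By rank, 11 of these were in the upper 50 and 37 in the lower 50, a split that the ranking by lowest level favours. Fitted without limma's trend of spread with level, the test called 37 members in all. Its count also moved when 1 library was left out. Distances were taken from feather to each other appendage, as means over the species. The largest distance from feather was a log2 of 2.40 for member 90, 1.64 for member 81 and 1.47 for member 60. It was 1.34 for member 68, 1.28 for member 56 and 1.21 for member 57. Each of these 6 distances was past 2-fold, and no other called member was that far from feather. The share of all tested genes that far from feather is not given here. The median of the largest distance was 0.28 over the members and 0.54 over all tested genes. Distances between appendages other than feather were not taken, so a wider one among those would be missed. The emu part of each distance to reticulate scale or claw rests on 1 library. For members 56 and 68 the mean joins unlike values of the 2 birds. Their reticulate scale minus feather was larger in emu by a log2 of 1.99 and 1.52.

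**Figure D3:**
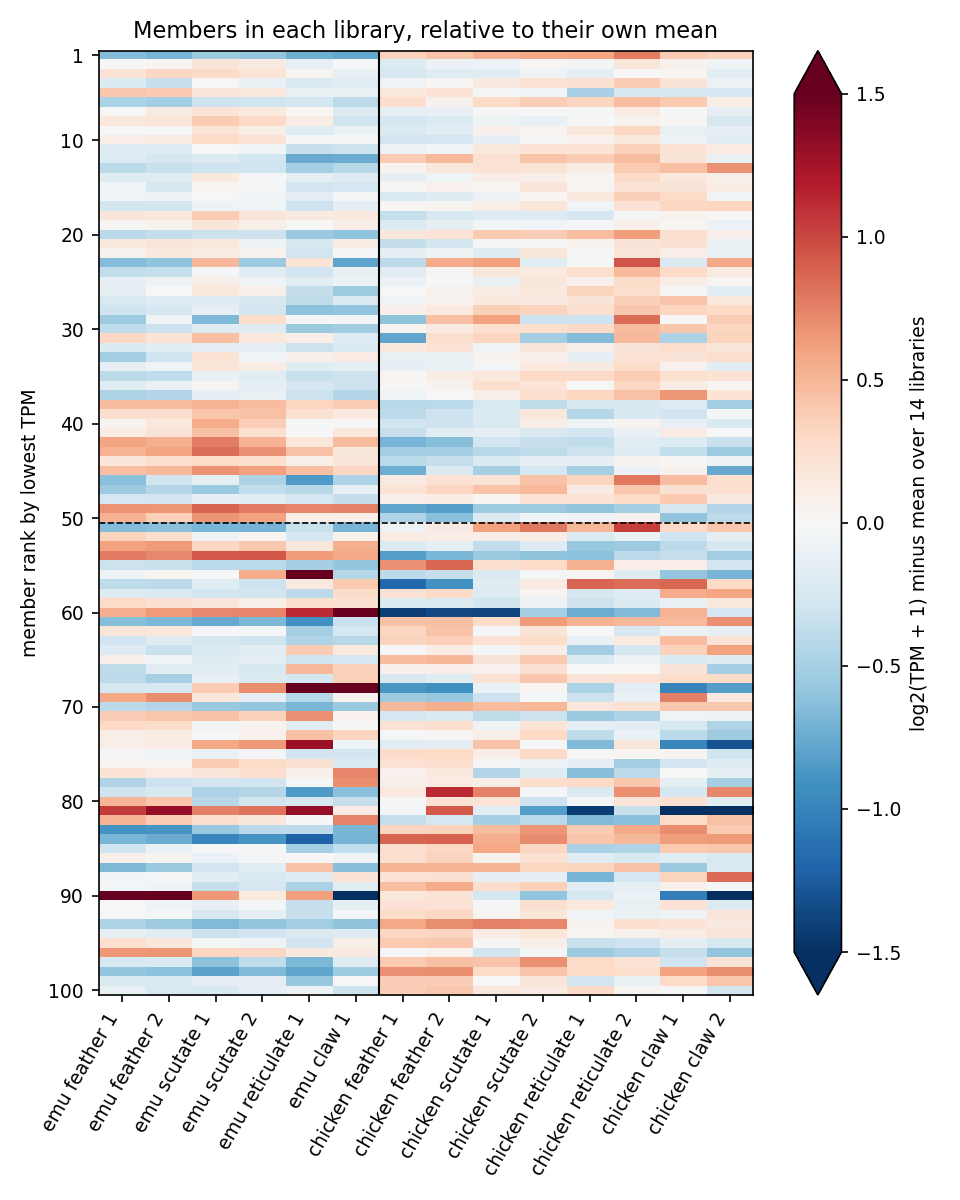
Log2 level of each member in each library relative to that member's mean over the 14 libraries, with the members in rank order from top to bottom, the emu libraries on the left and the chicken libraries on the right. Many of the rows ranked 1 to 50 are pale, while some, such as members 1 and 49, are split by species. Members 56, 57, 60, 68, 81 and 90 among ranks 51 to 100 show some of the deepest colours.

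Member 90 (ENSGALG00000010243) was highest in feather and lowest in claw in both birds. It had 3181 and 4601 TPM in emu feather, 1750 and 1238 TPM in emu scutate scale, 1710 TPM in emu reticulate scale and 372 TPM in emu claw. The chicken libraries had 1249 and 1277 TPM in feather, 929 and 740 TPM in scutate scale, 945 and 1052 TPM in reticulate scale, and 545 and 397 TPM in claw. Member 81 (ENSGALG00000000236) was also lowest in claw in both birds, at 1848 TPM in emu and 601 and 411 TPM in chicken. Its replicates in the other chicken groups lay far apart, at 1676 and 3215 TPM in feather, 1520 and 952 TPM in scutate scale, and 629 and 1347 TPM in reticulate scale. Member 57 (ENSGALG00000003770) was lowest in feather in both birds. It had 1257 and 1241 TPM in emu feather, 1436 and 1320 TPM in emu scutate scale, 1799 TPM in emu reticulate scale and 2146 TPM in emu claw. In chicken it had 723 and 872 TPM in feather, 1436 and 1786 TPM in scutate scale, 3006 and 2930 TPM in reticulate scale, and 2972 and 2011 TPM in claw.

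**Figure D4:**
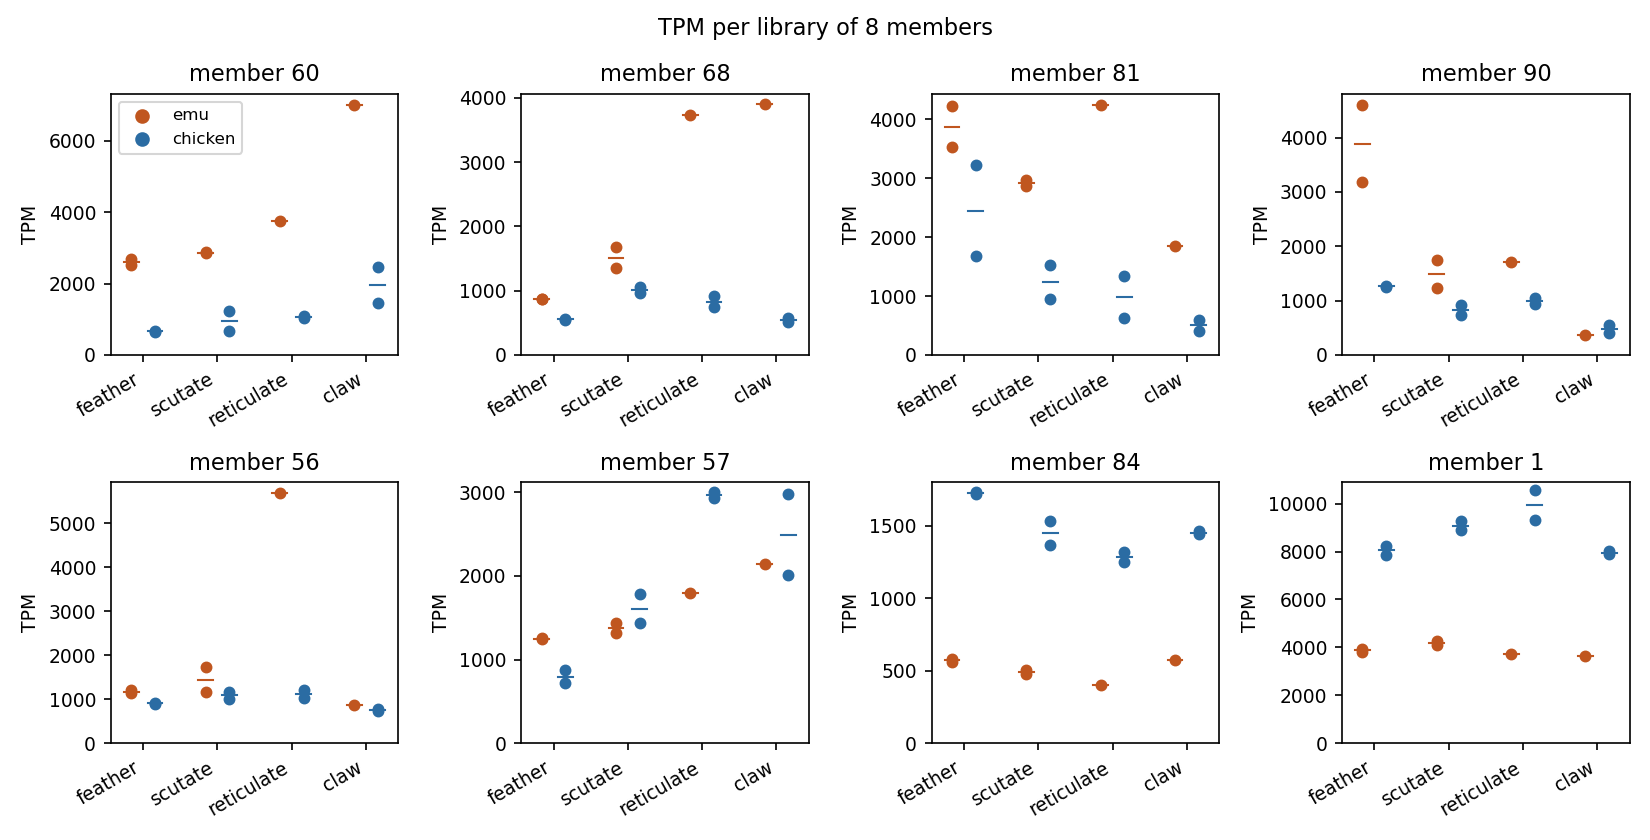
TPM of 8 members picked among those with large shifts between species or appendages, by appendage and with emu left of chicken. Each point is a library and each bar a group mean. Member 60 is highest in claw in both birds, member 90 is lowest in claw in both, member 56 is highest in the emu reticulate library, and members 84 and 1 are lower in emu in every appendage.

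The appendage with the highest group mean was the same in both birds for 35 members, against 37.8% of the genes tested. For 20 of these it was feather, for 6 claw, for 5 reticulate scale and for 4 scutate scale. In emu the highest group was scutate scale for 42 members and reticulate scale for 14. In chicken it was reticulate scale for 36 members and scutate scale for 14. The lowest group was reticulate scale for 48 members in emu and feather for 51 in chicken, while reticulate scale was the lowest group for 24 members in chicken. Emu reticulate scale and claw are 1 library each, and the like counts over all tested genes were not taken. The highest group mean of a member was a median of 1.31 times its lowest in emu and 1.31 times in chicken, so many of these orders rest on small distances.

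In chicken reticulate scale, the upper 50 held 29.45% and 32.90% of the listed total, against 26.03% and 26.66% in chicken feather, and the lower 50 held 7.21% and 7.46%, against 7.86% and 8.08%. Reticulate scale minus feather called 45 members, against 28.3% of all genes tested. Of these, 18 were higher in reticulate scale and 27 lower, against 9.84% and 18.5% of all genes tested. In the upper 50, 47 members were above 0, 14 were called higher and 1 was called lower, with a median log2 difference of 0.26 and a range of -0.55 to 0.54. In the lower 50, 39 members were below 0, 26 were called lower and 4 called higher, with a median of -0.33. Over all tested genes the median was -0.09.

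Member 57 rose by the most, at a log2 of 1.90 (SE 0.18, limma adjusted p = 0.000221). Member 51 (ENSGALG00000002377) followed at 0.75 (SE 0.16, limma adjusted p = 0.00838). Of the members that fell, member 81 had a log2 of -1.33 (SE 0.41, limma adjusted p = 0.0372), and member 85 (ENSGALG00000013257) one of -0.74 (SE 0.10, limma adjusted p = 0.00109). Member 85 had 410 and 418 TPM in chicken reticulate scale and 678 and 709 TPM in chicken feather, so the groups stood well apart. Member 5 was the only one of the upper 50 called lower, at -0.55 (SE 0.10, limma adjusted p = 0.0038), with 3219 and 3839 TPM in reticulate scale and 5064 and 5217 TPM in feather. The call of member 81 was lost without the second feather library (-0.86, limma adjusted p = 0.245) or the first reticulate scale library (-0.79, limma adjusted p = 0.238), and with other settings, while that of member 51 was lost without the first feather library (0.65, limma adjusted p = 0.0658).

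These counts rested on few libraries. Without the second chicken reticulate scale library, in which the members held 40.36% of the total, 29 members were called, 5 of them higher, and the median of the upper 50 was 0.15. Without the first chicken feather library 19 members were called, 2 of them higher, and without the second 16 were called, 5 of them higher. After quantile normalization the median of the upper 50 was 0.03, with 10 members called higher and 21 lower. That fit called 31 members and 2004 of the 7563 genes tested, and median-ratio rescaling called 32 members and 2013 genes. The model without rescaling called 45 members and 2142 genes, so the excess of members over genes at large was smaller after either scaling.

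In the single emu reticulate scale library, 12 members of the upper 50 were above the emu feather mean and 38 below it, with a median log2 difference of -0.12 and no test. Of the 18 members called higher in chicken, 7 were also above 0 in emu. Of the 27 called lower, 23 were also below 0 in emu. In this emu difference 29 of all 100 members were above 0 and 71 below, and 46.6% of all genes tested were above 0 and 51.3% below. Members past 2-fold in emu numbered 6, against 7.54% of tested genes higher and 4.89% lower by that fold. They were members 56, 68, 74 and 87, which were higher in reticulate scale, and members 69 and 90, which were lower.

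**Figure D5:**
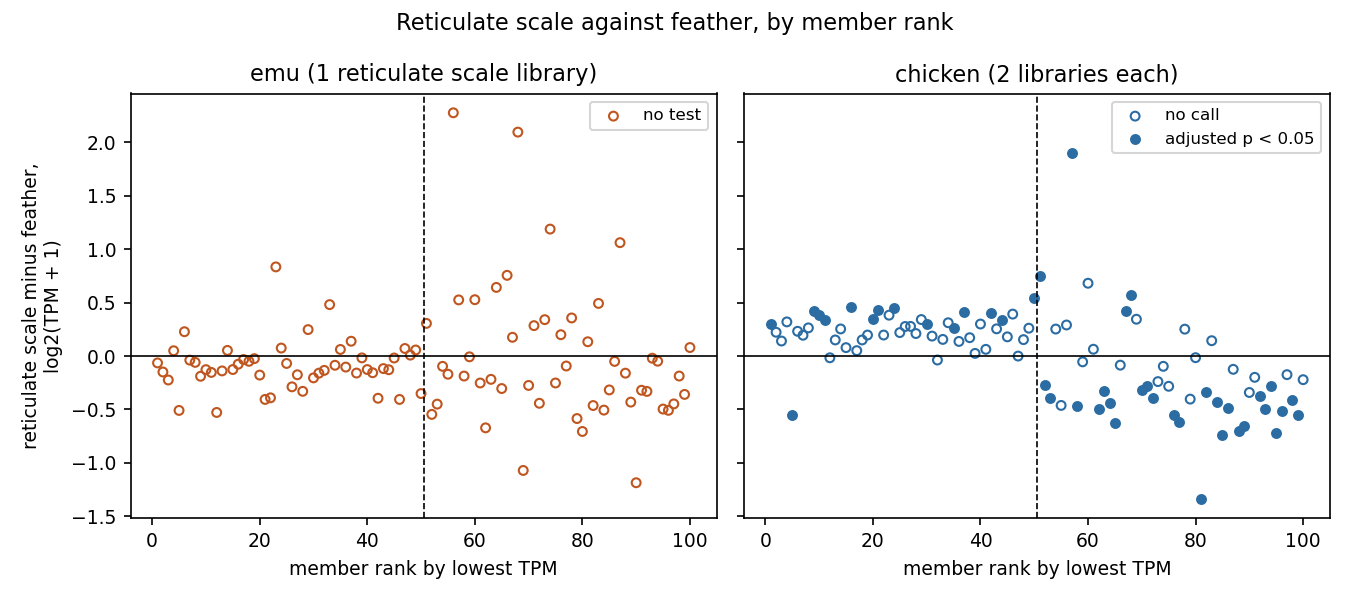
Log2 difference of reticulate scale minus feather for each member by rank, in emu (left, 1 reticulate scale library, no test) and in chicken (right, 2 against 2 libraries, filled points called by limma), with a dashed line after rank 50. In chicken 47 of the members ranked 1 to 50 lie above 0, and in emu 12 do.

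The difference of these differences was fitted after their opposite directions had been seen, so it is no independent check of them. The spread within emu reticulate scale was not measured, and the single library was assumed to vary like the replicated groups. Under that assumption limma called 17 members, 6 of them more positive in emu and 11 more negative, against 12.0% of all genes tested (7.83% and 4.19%). Member 56 differed by the most, at a log2 of 1.99 (SE 0.27, limma adjusted p = 0.00325). It had 5694 TPM in emu reticulate scale, against 1136 and 1211 TPM in emu feather. The chicken libraries had 1214 and 1027 TPM in reticulate scale, against 900 and 926 TPM in feather. Member 57 differed the other way, at -1.38 (SE 0.29, limma adjusted p = 0.0167). Of the upper 50, 9 were called more negative in emu and 0 more positive. The share of 12.0% belongs to the fit with all libraries, and does not apply to the counts with a library left out. All calls more negative in emu depended on the first emu feather library. Those of members 9, 10, 20, 26 and 28 were also lost after median-ratio rescaling and after quantile normalization. Fewer calls were left without the first emu feather library (4 members), the second (6), or either chicken feather library (5 each), and the call of member 57 was lost without the first chicken feather library (limma adjusted p = 0.0597) or an emu feather library (limma adjusted p = 0.0554 and 0.0555). That of member 69, at -1.42, was lost without any 1 of the 4 feather libraries or without the second chicken reticulate scale library (limma adjusted p = 0.0527 to 0.0678).

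In chicken, claw minus the mean of the other 3 appendages called 41 members, against 55.9% of all genes tested. Of these, 17 were higher and 24 lower in claw, against 11.4% and 44.5% of all genes tested. The median difference was -0.31 over all tested genes and about 0 over the members, at 0.005. This split depends on the scaling. With every library set to a common listed total, 28 members were higher and 12 lower. After median-ratio rescaling, which moved the median of all tested genes to 0.01, 56 were higher and 4 lower. Of the 7563 genes tested, 4229 were called without rescaling, 3815 with a common listed total and 3651 after median-ratio rescaling. Members called numbered 41, 40 and 60 in these fits, so after median-ratio rescaling they were called more often than genes at large. Without the second chicken claw library 28 members were called.

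Member 60 was higher in chicken claw by a log2 of 1.14 (SE 0.23, limma adjusted p = 0.00261), and member 82 (ENSGALG00000007205) by 0.83 (SE 0.07, limma adjusted p = 2.67e-05). Member 82 had 796 and 873 TPM in chicken claw and between 407 and 538 TPM in the other chicken libraries, with no overlap. Member 81 was lower in chicken claw by -1.46 (SE 0.33, limma adjusted p = 0.00468) and member 90 by -1.12 (SE 0.19, limma adjusted p = 0.00088). In emu, where claw was 1 library and has no test, 11 of the 17 members higher in chicken claw were above 0, and 17 of the 24 lower ones were below 0. Of all 100 members 40 were above 0 and 60 below in this emu difference, as were 38.9% and 59.3% of all genes tested, so the lower ones stood near the background. Past 2-fold in emu were 4 members, against 5.74% of tested genes higher and 8.71% lower by that fold. Members 60 and 68 were higher in emu claw, and members 56 and 90 lower.

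The claw difference between the species was also fitted after the values had been seen, under the same assumption for the single emu claw library. It called 11 members, 6 more positive and 5 more negative in emu, against 28.9% of all genes tested (20.5% and 8.33%). With a common listed total it called 19 members, 4 of them more positive, and after median-ratio rescaling 14, 2 of them more positive. Of the 7563 genes tested these fits called 1849 and 1867, against 2183 without rescaling. The share of 28.9% does not apply to the counts with a library left out. Without the first chicken feather library or the second emu feather library 6 were called, without the second chicken feather library 7, and without the second chicken claw library 17. Member 68 differed by the most, at a log2 of 1.70. It had 3897 TPM in emu claw, above the other emu libraries, and 515 and 581 TPM in chicken claw, near the bottom of the chicken range. Member 78 (ENSGALG00000004107) differed by 1.45, with 960 TPM in emu claw and 434 to 584 TPM in the other emu libraries, against 539 and 418 TPM in chicken claw and 628 to 784 TPM in the other chicken libraries.

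Between scutate scale and feather, the 2 appendages with replicates in both species, few members passed the test. In emu, 3 members were called, against 4.84% of all genes tested (2.26% higher and 2.58% lower). Member 68 rose by a log2 of 0.79 (SE 0.13, limma adjusted p = 0.0113), and members 90 and 80 fell by 1.38 and 0.81. In chicken, 6 members were called, against 9.82% of all genes tested (3.20% higher and 6.62% lower). Members 57, 68, 51 and 67 rose, by 1.01, 0.86, 0.69 and 0.53, and members 95 and 98 fell by 0.35 and 0.33. Member 68 had 1346 and 1684 TPM in emu scutate scale against 871 and 873 TPM in emu feather, and 966 and 1055 TPM in chicken scutate scale against 564 and 544 TPM in chicken feather. Its scutate scale libraries were above its feather libraries in both birds.

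These calls were fragile. Leaving out 1 library in turn gave 0 to 8 called members in emu and 2 to 10 in chicken. In emu, the call of member 68 was lost without either feather library or the second scutate scale library (limma adjusted p = 0.0785 to 0.0886), that of member 90 without the second library of either appendage (limma adjusted p = 0.0831 and 0.0942), and that of member 80 with several settings. In chicken, member 68 kept its call in every fit that left out 1 library, as did member 67. Member 57 lost its call without the first feather or the second scutate scale library (limma adjusted p = 0.0753 and 0.061), and members 51, 95 and 98 lost theirs without any of several libraries.

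The upper 50 leaned the same way in both, without single members passing the test. Above 0 were 44 of them in emu, with a median of 0.15, and 47 in chicken, with a median of 0.17, and 0 were called in either bird. In the lower 50, 16 were above 0 in emu and 19 in chicken. Over all tested genes the median was -0.025 in emu and -0.045 in chicken, and the share above 0 is not given here. The members share the same libraries, so these counts are a description and carry no test. How this lean moves with the scaling of the libraries is not given here. The test of the difference between the birds called 0 members in limma, with 11 at an unadjusted p under 0.05, against 4.28% of all genes tested (2.88% more positive in emu and 1.40% more negative). A p over the threshold does not show that the birds were alike.

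Some of the spread among members lay between replicates of 1 group. For 90 members no pair of replicates differed by 1.5-fold or more. Members 23, 31 and 79 did so in all 4 chicken pairs. In emu, member 23 had 2608 and 2688 TPM in feather and 5717 and 2812 TPM in scutate scale. In chicken it had 6040 and 3116 TPM in feather replicates 2 and 1, 6294 and 3602 TPM in scutate scale replicates 1 and 2, 7864 and 4071 TPM in reticulate scale replicates 2 and 1, and 6083 and 3527 TPM in claw replicates 2 and 1. The cause of these gaps was not tested, and the share of all tested genes without such a gap is not given here. The SD of the log2 differences between replicates over the members ran from 0.22 to 0.30 in chicken groups and was 0.11 in emu feather and 0.19 in emu scutate scale. Over all tested genes it ran from 0.275 to 0.67 in chicken groups and was 0.268 in emu feather and 0.332 in emu scutate scale. The members thus varied less between replicates than genes at large in each group.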

How the data were processed

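Levels were read from 1 table of 8751 Ensembl chicken gene IDs, used for both species. The authors deposited values on another scale than TPM. No header gives it, but the squares sum to 550000 in each emu column, so a square root of TPM was taken as the unit and the values were squared. The headers of the emu columns alone carry the word scaled, so a species difference includes any scaling of these columns. The planned tests had assumed TPM. Per the submitters' processing notes, CASAVA, TopHat2 2.0.6 and HTSeq 0.5.3p9 were used. The genome builds and the way emu reads were assigned to chicken IDs are not given in the sources used here, so a species difference includes any difference in that assignment. TPM keeps no read number, so depth is unknown and no counting error is given.

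Levels were compared as log2(TPM + 1), which hardly alters the fold of genes as abundant as these, for the 7563 genes that reached 1 TPM in 2 or more libraries. A single limma 3.58.1 model (R 4.3.3, eBayes with trend) had a mean for each of the 8 groups, which left 6 residual degrees of freedom, and groups of 1 library borrow their spread from the others. P-values were adjusted by Benjamini-Hochberg over all tested genes, with a threshold of 0.05, and the code was tested on simulated data. The p-values measure the spread between the libraries used. Members and lists were chosen with earlier results of these data known. The members named are, for each comparison, up to 10 called members in each direction with the largest difference, the leaders of each group and the largest shifts in place, of which some are given as counts. The split at rank 50 and the tests of reticulate scale and claw between species were added after values were seen. Marker and pathway lists were not used here, since the IDs carry no names. Figures were drawn with matplotlib 3.10.9 in Python 3.11.15.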

Additional observations from a re-analysis of the deposited data

Results flagged for a closer look

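Reticulate scale minus feather, and claw minus the mean of the other 3 appendages, were each compared between emu and chicken after the values had been seen. Each rests on a single emu library, whose spread was not measured and was assumed to be that of the replicated groups, so the calls are no independent check. For reticulate scale minus feather limma called 17 members under that assumption. The log2 difference was larger in emu by 1.99 for member 56, by 1.52 for member 68, by 1.19 for member 87 and by 1.09 for member 64, and smaller by 1.42 for member 69 (log2 -1.42) and by 1.38 for member 57 (log2 -1.38). The calls of members 69 and 57 were lost when any of several libraries was left out (limma adjusted p = 0.0527 to 0.0678 and 0.0554 to 0.0597). For claw 11 members were called, among them member 68 at a log2 of 1.70, member 78 at 1.45 and member 90 at -1.39. Member 87 had 843 TPM in emu reticulate scale against 387 and 420 TPM in emu feather, and 782 and 841 TPM in chicken reticulate scale against 886 and 881 TPM in chicken feather. For members 68 and 56 the emu value in reticulate scale was above every other library of either bird, member 68 in emu claw excepted.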

How the results depend on the processing

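Ranking by lowest group mean kept 99 of the 100 members, median-ratio rescaling before ranking 97, a common listed total before ranking 99, and ranking by mean TPM 82. Leaving out 1 library kept 95 to 100. The mean share in emu was 26.6% for the first 50, 42.36% for the first 200 and 37.08% for the mean ranking, and in chicken 29.5% for the first 50 and 45.08% for the first 200. No named member changed direction: of 2325 values for 106 named results over 24 settings, 2064 stayed on the same side of the threshold and 261 lost the call, with 0 turned round. The named results of the appendage F test have no sign, so they could not have turned round. Nor could a difference turn round in a fit that changed only the gene filter or the trend, or left out a library outside the comparison. The named results were also picked as the largest called differences, so 0 turned round is a weak check. Without both chicken claw libraries, an alternative chosen after seeing the data, scutate scale minus feather called 7 members and 677 genes in emu (366 in the model with all libraries) and 10 members and 1217 genes in chicken (743), its interaction with species 2 members and 688 genes (324), and the reticulate scale interaction 1489 genes (909). With only the groups compared, these were 1 member and 215 genes in emu, 1 member and 473 genes in chicken, 4 members and 731 genes, and 1696 genes, and chicken reticulate scale minus feather called 26 members. For chicken reticulate scale minus feather that fit called 2329 of the 7563 genes tested, so there the members were called less often than genes at large. The scutate scale interaction called 3 members after quantile normalization. The reticulate scale interaction called 9 members after median-ratio rescaling and 10 without the trend, and the claw interaction 19 with a common listed total. The causes were not tested.

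Leaving out 1 library in turn gave 259 to 1217 genes and 2 to 10 members for chicken scutate scale minus feather, 925 to 2798 genes and 16 to 55 members for chicken reticulate scale minus feather, and 124 to 679 genes and 0 to 8 members for emu scutate scale minus feather. It gave 0 to 3 members and up to 688 genes for the scutate scale interaction, 364 to 1489 genes and 4 to 25 members for the reticulate scale interaction, and 6 to 17 members for the claw interaction. A group left with 1 library was assumed to vary like the others.

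The replicate numbers as given were not a common pairing of the chicken libraries. The deviations of same-numbered libraries correlated at -0.191 between feather and scutate scale and at -0.228 between scutate and reticulate scale. Between feather and reticulate scale they correlated at 0.185, and between claw and the others at -0.063 to 0.046. With the number as a replicate block, 76 members were called for species (5820 genes), 45 for appendage (4268 genes), 6 for chicken scutate scale (675 genes), 40 for chicken reticulate scale (1979 genes), 39 for chicken claw (4183 genes) and 2 for emu scutate scale (311 genes). The interactions called 0 members for scutate scale (281 genes) and 11 each for reticulate scale and claw (721 and 1998 genes). Feather and scutate scale numbers in chicken correlated at -0.191, and with crossed numbers 634 genes and 5 members were called.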

Other observations

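The gaps between chicken replicates were shared beyond the members. Of 3619 genes with a lowest level of at least 10 TPM, 41 had a gap of 1.5-fold or more in all 4 chicken pairs, and 39 of these were high in the same libraries, feather 2, scutate scale 1, reticulate scale 2 and claw 2. Members 23, 31 and 79 were among them. The median gap of the 39 genes was 1.90-fold in feather, 1.76-fold in scutate scale, 1.83-fold in reticulate scale and 1.89-fold in claw. They were chosen for a gap of 1.5-fold or more in each of these pairs, so medians above that follow from the choice. Member 29 had such a gap in 3 chicken pairs and in emu scutate scale.

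Some genes were abundant throughout 1 bird. There were 6 genes in the first 100 of all 6 emu libraries and of 0 chicken libraries, 1 of them a member, and 11 in the first 100 of all 8 chicken libraries and of 0 emu libraries, 4 of them members. The number of genes that made up 50% of the listed total was 231 to 292 in emu and 143 to 263 in chicken, with 143 and 176 in the chicken claw libraries.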
